A study of Mus musculus with 6 samples.

Results

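The hypoxia sensing genes described here are 10 named genes of the oxygen response, taken by symbol from the count table of bone endothelial cells (BECs), which holds 37991 genes. They are the transcription factor subunits Hif1a, Epas1 and Arnt, the oxygen-dependent regulators Egln1, Egln2, Egln3 and Vhl, and the target genes Bnip3, Adm and Ankrd37. All 10 were found in the table by Ensembl identifier and all 10 passed the filter on low counts. RNA came from wildtype mice of the strain c57/Bl6 (C57BL/6J in the methods) aged 12 weeks, with 3 female and 3 male libraries and no treatment or allele named in the labels. Per the labels, the cells were freshly taken from the tibia and selected by endomucin, a sialomucin of capillary and venous endothelium, and per the methods the samples with the best RNA quality in each set were the ones sequenced. No label says whether a library came from 1 animal or from several.

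Cells sense oxygen through the hypoxia-inducible factors (HIFs). When oxygen is present, prolyl hydroxylases encoded by the Egln genes modify the alpha subunits HIF1A and EPAS1, and the VHL protein marks the modified subunit for degradation. When oxygen is low, the alpha subunit is spared, joins ARNT and raises the transcription of target genes. Most of this control acts on protein, so transcript levels of the alpha subunits are not a measure of HIF activity. Bone marrow is known for low oxygen in its sinusoidal regions, and EPAS1 is the alpha subunit best known from endothelium.

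The data are whole-number counts per gene, with totals between 47678806 and 58325745 per library, at which 3 counts equal between 0.0477 and 0.0639 CPM, the count scaled by library size. Levels are given as CPM after TMM normalization, which scales each library to the bulk of its genes. All 20 endothelial markers on the list were detected, none at 0 throughout, and their summed level was between 460 and 658 CPM in females and between 279 and 422 CPM in males. The 15 neutrophil markers summed to between 19291 and 23590 CPM in females and between 32723 and 44644 CPM in males, which is between 30.4 and 160 times the endothelial sum. The libraries thus carried transcripts of blood cells beside those of the labelled endothelium, and levels of broadly expressed genes belong to the mixture. In such a mixture, fewer cells of a type and less RNA per cell cannot be told apart. No 2 libraries were copies of each other, with a chi-square per degree of freedom of at least 31.5 over the 15 pairs.

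Set per length of exon, the 10 genes covered more than an order of magnitude. Over both sexes together Epas1 was highest, with a mean of 11.8 CPM per kb over the 6 libraries (range 6.95 to 17.9). Hif1a followed at 8.73 CPM per kb (8.26 to 9.96), Vhl at 8.58 (7.91 to 9.19) and Egln2 at 8.21 (7.13 to 9.16). The ranges of these 4 neighbours overlapped, so their order does not exceed their spread. Egln2 and Bnip3 were apart, Bnip3 having a mean of 5.19 CPM per kb (4.05 to 6.39). From Bnip3 through Arnt, at 4.91 CPM per kb, Egln1, at 3.95, and Ankrd37, at 2.49, to Egln3, at 1.82, each gene overlapped the next. Adm was lowest at 0.828 CPM per kb (0.488 to 1.13) and apart from Egln3. The order differed between the sexes at its top: Epas1 was first in females, at 15.7 ± 3.29 CPM per kb beside 8.93 ± 0.892 for Hif1a, and below 3 other genes in males, at 7.96 ± 1.54 beside 8.58 ± 0.548 for Vhl, 8.54 ± 0.371 for Hif1a and 8.46 ± 0.625 for Egln2 (mean ± SD, n = 3 each). In males the ranges of these 4 genes overlapped. Among the 17743 tested genes with a known exon length, Epas1 stood at percentile 81.3 of this scale, Hif1a at 76.1, Egln3 at 41.0 and Adm at 27.1.

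**Figure D1:**
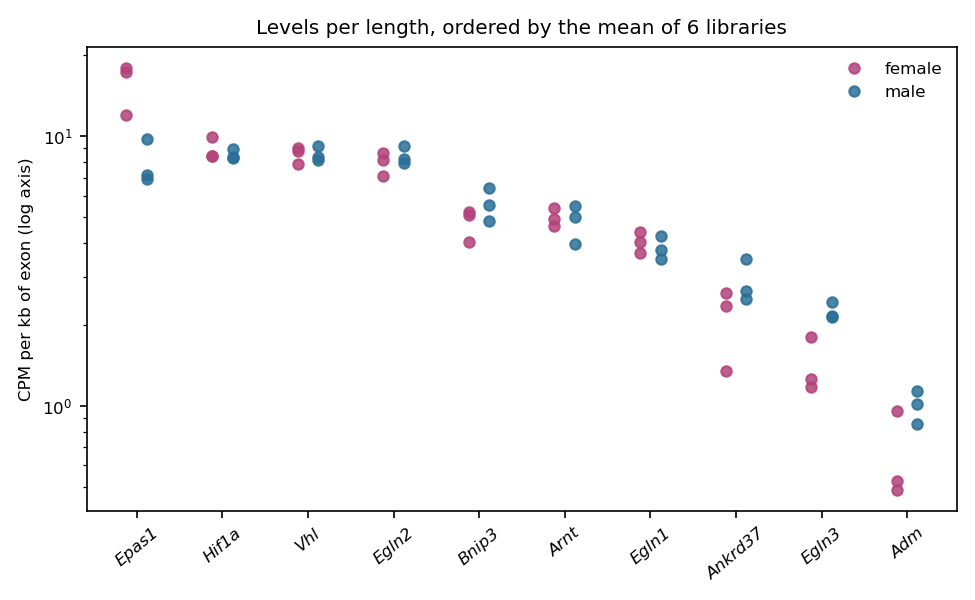
CPM per kb of exon, on a log axis, for each gene in each library, ordered by the mean of the 6 libraries, with females in pink and males in blue. Epas1 runs from 6.95 to 17.9 with its sexes apart, while Hif1a, Vhl and Egln2 lie close together between 7.13 and 9.96.

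The comparison between the sexes asked whether transcripts of the oxygen response differ between female and male BECs. By the quasi-likelihood test of edgeR, with p adjusted by Benjamini-Hochberg over 19480 genes and a threshold of 0.05, none of the 10 genes passed, where 0.0411% of all genes did. With DESeq2's Wald test, 1 of the 10 passed, Epas1, where 1.99% of all genes did, and with a block for the replicate number edgeR called 1, again Epas1, where 2.2% did. At an unadjusted p under 0.05 in edgeR, 2 of the 10 were found, Epas1 and Egln3, against 9.79% of all genes. Female and male libraries were fully apart for 1 gene that was lower in males, Epas1, where 7.29% of all genes tested were so, and for 1 gene that was higher in males, Egln3, where 7.25% were so. With 10 genes, these counts are near the background. The log2 fold change of males over females was positive for 5 genes and negative for 5, with a median of 0.04 beside -0.0012 over all genes tested.

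**Figure D2:**
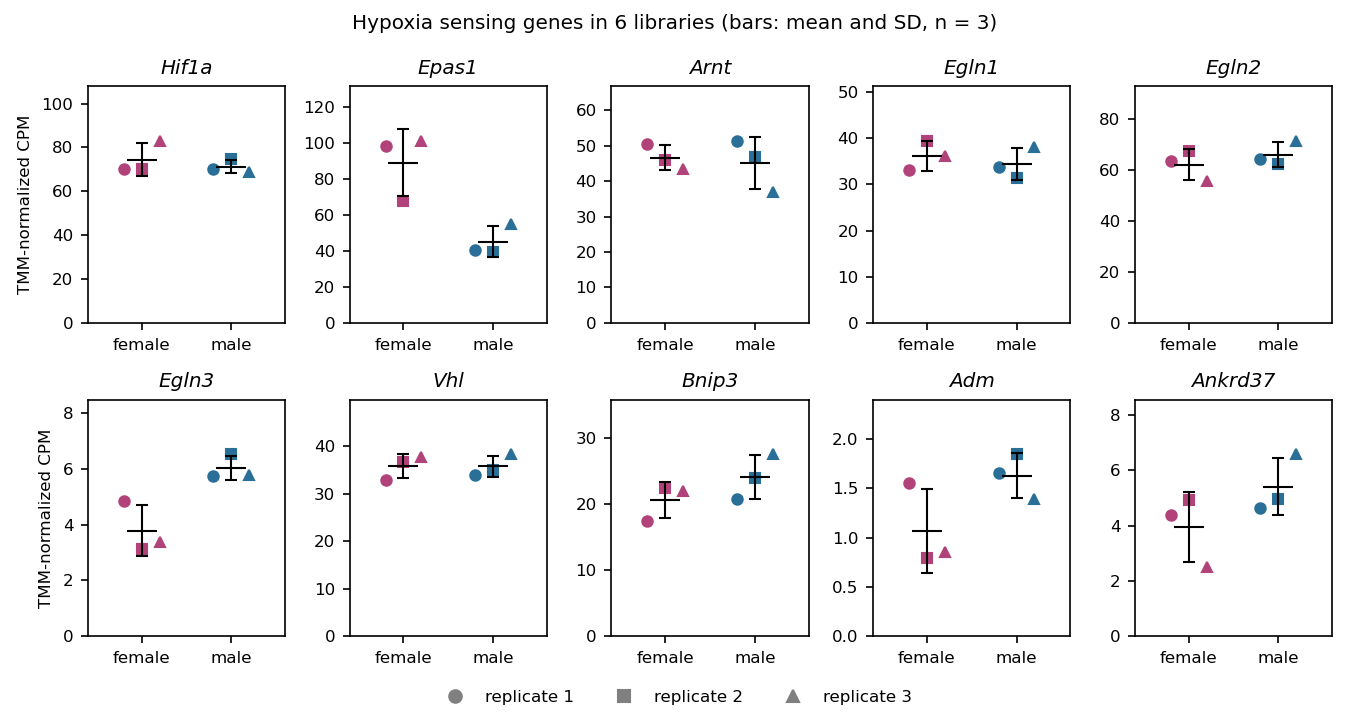
TMM-normalized CPM of each hypoxia sensing gene by sex, with a marker shape for each replicate number and bars for the mean and SD (n = 3), each axis starting at 0. The sexes are apart for Epas1, lower in males, and for Egln3, higher in males, and they overlap in the other panels.

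Among the transcription factor subunits, Epas1 had female and male libraries that were apart, without passing the main test, and those of Hif1a and Arnt overlapped. Epas1 (ENSMUSG00000024140, chr17:87061087-87140838 of GRCm39, plus strand), which encodes the alpha subunit also called HIF-2 alpha, had 98.1, 67.5 and 101 CPM in female replicates 1, 2 and 3. In male replicates 1, 2 and 3 it had 40.7, 39.3 and 54.9 CPM. Every male library lay below every female library, and female replicate 2 was the lowest of the females. The female mean was 88.9 ± 18.6 CPM and the male mean 45.0 ± 8.67 CPM (± SD, n = 3 each). The log2 fold change was -0.98 (standard error 0.182, 95% interval -1.39 to -0.58), a level 1.98 times higher in females. The adjusted p was 0.0859 in edgeR's quasi-likelihood test, above the threshold, and 1.44e-04 in DESeq2's Wald test. By unadjusted p, 2.78e-04, Epas1 ranked 63 among all genes tested. In edgeR it passed under 3 alternatives, with no filter on low counts (adjusted p = 0.0207), with the replicate block (0.00123) and without male replicate 3 (log2 fold change -1.15, adjusted p = 0.0350). Over all alternatives, with both tools, the adjusted p lay between 1.44e-04 and 0.445.

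Markers of endothelial cells moved with Epas1. All 20 endothelial markers had a negative log2 fold change, with a median of -1.02, although none passed the test, and their sum did not overlap between the sexes. Emcn, which encodes the endomucin used for selection, had 8.68, 5.35 and 10.5 CPM in female replicates 1, 2 and 3 and 4.21, 3.09 and 6.73 CPM in male replicates 1, 2 and 3, and overlapped between the sexes. Stab2, a scavenger receptor of sinusoidal endothelium and the most abundant gene of the list, lay between 106 and 124 CPM in females and between 54.7 and 84.9 in males. Pecam1, the adhesion molecule CD31, overlapped between the sexes, with 82.6 to 101 CPM in females and 68.5 to 90.6 in males. Stab1, a related scavenger receptor that macrophages also express, lay between 51.0 and 57.6 CPM in females and between 36.8 and 43.8 in males. Divided by the endothelial sum, Epas1 stood at 0.155, 0.147 and 0.154 in female replicates 1, 2 and 3 and at 0.114, 0.141 and 0.130 in male replicates 1, 2 and 3. Relative to the sum of these markers, males lay lower by a log2 difference of -0.25 (p = 0.1 in a two-sided exact permutation test, the smallest that 3 against 3 allows), beside -0.98 for Epas1 itself. The most abundant markers, Stab2, Pecam1 and Stab1, had log2 fold changes of -0.69, -0.23 and -0.45. These falls are smaller than the list median of -1.02, so the ratio depends on the weight of these genes in the sum. Without male replicate 1, the lowest library of this ratio, the difference was -0.16. Divided by Cdh5, which encodes VE-cadherin, and Pecam1 alone, the log2 difference was -0.58 and the sexes overlapped (exact permutation test, p = 0.2). Of this pair Pecam1 was the more abundant, with a mean of 85.4 CPM and a log2 fold change of -0.23. Cdh5, with a mean of 19.1 CPM, stood at -1.17, a larger fall than that of Epas1. The ratio to the pair thus rests mostly on Pecam1.

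Epas1 is also expressed outside endothelium, so other marker lists were set beside it after the data were seen. The 12 stromal and osteoblast markers, led by Cxcl12, Col1a2 and Adipoq, had sums of 1540 to 3163 CPM in the female and 1290 to 2449 CPM in the male libraries, which overlapped. The 12 macrophage and monocyte markers, led by Vcam1, C1qa and C1qb, had sums of 5243 to 5465 CPM in the female and 3593 to 4671 CPM in the male libraries, which were apart. Of the stromal list 11 of 12 had lower means in males, with a median log2 fold change of -0.48, and Adipoq, the adipokine adiponectin, lay apart at -1.69. Of the macrophage list 10 of 12 had lower means in males, with a median of -0.40. No gene of these lists passed the test or was at 0 throughout. Relative to the stromal sum, Epas1 differed by a log2 of -0.54 and relative to the macrophage sum by -0.58 (exact permutation test, two-sided, p = 0.1 for each). The part of each cell type in the level of Epas1 was not tested.

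**Figure D3:**
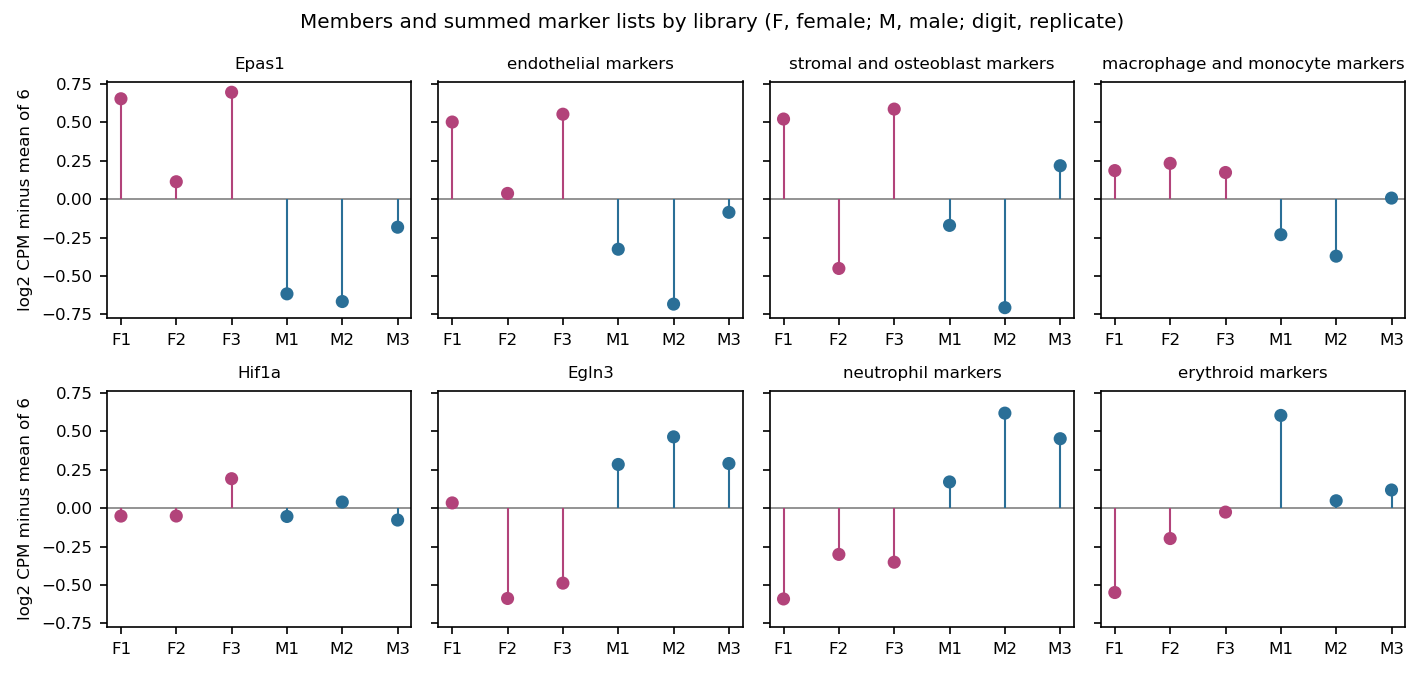
Log2 CPM of Epas1, Hif1a and Egln3 and of summed marker lists in each library, minus the mean of the 6 libraries, with females in pink and males in blue. Epas1 and the endothelial sum are above their mean in every female library and below it in every male library, Hif1a stays near its mean, and Egln3 and the neutrophil sum are above their means in the males.

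Hif1a (ENSMUSG00000021109, chr12:73948149-73996321 of GRCm39, plus strand), the alpha subunit expressed in most cells and abundant in myeloid cells, had 70.2, 70.2 and 83.1 CPM in female replicates 1, 2 and 3. In male replicates 1, 2 and 3 it had 70.1, 74.8 and 68.9 CPM. The sexes overlapped, and female replicate 3 was the one high library. The log2 fold change was -0.06 (standard error 0.114, 95% interval -0.32 to 0.19, adjusted p = 0.891 from edgeR), so a difference of up to 1.14 times in favour of males or 1.25 times in favour of females stayed within the interval. Of its exon bases, 8.33% are shared with Gm15283 on the opposite strand, which had at most 0.724 CPM in any library. The neutrophil sum, led by S100a9, S100a8 and Ngp, was higher in every male than in every female library. Hif1a relative to that sum differed by a log2 of -0.89, or -0.63 without S100a8 and S100a9, which restates the difference in the sum.

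The ratio of the alpha subunits set the sexes side by side within each library. Per kb of exon, Hif1a stood at 0.484, 0.705 and 0.557 times Epas1 in female replicates 1, 2 and 3. It stood at 1.17, 1.29 and 0.850 times Epas1 in male replicates 1, 2 and 3. The ratio was higher in every male library, by a log2 difference of 0.92 (p = 0.1 in a two-sided exact permutation test, its smallest value), and Epas1 exceeded Hif1a in all 3 females and in male replicate 3. With Hif1a at a log2 fold change of -0.06, this ratio largely restates the difference in Epas1, at -0.98.

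Arnt (ENSMUSG00000015522, chr3:95341365-95404551, plus strand) encodes the beta subunit, which also pairs with other factors such as the aryl hydrocarbon receptor. It had 50.4, 46.1 and 43.5 CPM in females and 51.4, 47.0 and 37.1 CPM in males, in the order of replicates 1, 2 and 3. The sexes overlapped, and the lowest library was male replicate 3. Its log2 fold change of -0.05 had a 95% interval of -0.36 to 0.26 (SE 0.139, edgeR adjusted p = 0.943).

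For both alpha subunits the genes most alike in pattern were sought among 12257 genes with a mean of at least 5 CPM. The measure was the root mean square difference between log2(CPM + 0.5) values over the 6 libraries, each gene centred on its own mean. For Epas1, whose own root mean square deviation was 0.541, the nearest genes were Ushbp1 (0.132), Smo (0.134), Sema5a (0.136), Mdk (0.145) and Galnt15 (0.150). For Hif1a, whose own deviation was 0.0931, they were Rngtt (0.0255), Lin52 (0.0278), Yme1l1 (0.0322), Adss2 (0.0335) and Trmt2b (0.0336). The choice by likeness fixes that these genes share the spread and the direction of the gene they were matched to.

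Of the oxygen-dependent regulators, only Egln3 had libraries that did not overlap between the sexes. Egln3 (ENSMUSG00000035105, chr12:54225767-54250673 of GRCm39, minus strand) encodes the prolyl hydroxylase PHD3, which is itself induced by HIF in many cells. It had 4.83, 3.14 and 3.37 CPM in female replicates 1, 2 and 3 and 5.75, 6.52 and 5.78 CPM in male replicates 1, 2 and 3. Every male library lay above every female library, with female replicate 1 nearest to the males. The means were 3.78 ± 0.920 CPM (SD, n = 3) and 6.01 ± 0.434 (SD, n = 3). The log2 fold change was 0.67 (standard error 0.241, 95% interval 0.13 to 1.20), with an unadjusted p of 0.0194 and an adjusted p of 0.393 from edgeR and 0.170 from DESeq2, so it did not pass. Counts behind these values lay between 158 and 321 per library. The neutrophil sum and the erythroid sum (12311 to 17701 CPM in the female and 18631 to 27393 CPM in the male libraries) were both higher in the same 3 libraries, and their part in the level of Egln3 was not tested. Libraries were apart and higher in males for 12 of the 15 neutrophil markers and 4 of the 11 erythroid markers, where 7.25% of all genes tested were so. These 4 were the globins, which make up most of the erythroid sum, and the other erythroid markers overlapped.

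Egln1 (ENSMUSG00000031987, chr8:125635308-125676865, minus strand), which encodes PHD2, the main oxygen sensor of most cells, had 33.0, 39.5 and 36.1 CPM in females and 33.8, 31.4 and 38.1 in males. Female and male libraries overlapped, and males over females gave a log2 of -0.07 (SE 0.126, 95% interval -0.35 to 0.21, adjusted p = 0.890 from edgeR). Relative to Egln1 and per kb, Egln3 stood at 0.487, 0.265 and 0.310 in females and at 0.566, 0.691 and 0.505 in males, a log2 difference of 0.77 (p = 0.1 in a two-sided exact permutation test, its smallest value). This ratio was higher in every male than in every female library, and female replicate 1 was nearest. With Egln1 at -0.07, it largely restates the difference in Egln3, at 0.67.

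Egln2 (ENSMUSG00000058709, chr7:26853588-26866408, minus strand), which encodes PHD1, had 63.4, 67.3 and 55.6 CPM in females and 64.2, 62.2 and 71.4 in males. On the log2 scale males differed by 0.09 (SE 0.118, 95% interval -0.18 to 0.35, adjusted p = 0.853 from edgeR), and the sexes overlapped. In the annotation 20.8% of its exon bases are shared with Cyp2t4 on the opposite strand, which had at most 0.0190 CPM in any library.

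Vhl (ENSMUSG00000033933, chr6:113600920-113608599, plus strand), which encodes the substrate receptor that marks hydroxylated HIF for degradation, varied least of the 10 genes, its highest library being 1.16 times its lowest. It had 33.0, 36.8 and 37.8 CPM in females and 34.0, 35.0 and 38.3 in males. On the log2 scale males differed by -0.0026 (standard error 0.116, 95% interval -0.26 to 0.25, adjusted p = 0.998 from edgeR), which leaves male levels between 0.835 and 1.19 times the female ones within the interval.

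**Figure D4:**
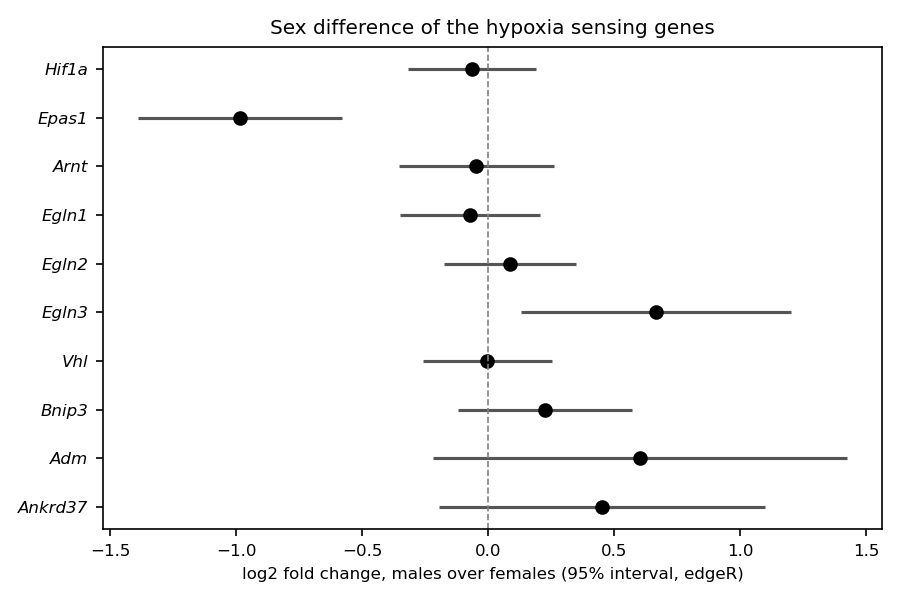
Log2 fold change of males over females for each of the 10 genes, with its 95% interval from edgeR's quasi-likelihood fit. The intervals of Epas1, from -1.39 to -0.58, and of Egln3, from 0.13 to 1.20, lie to one side of 0, and the other 8 include it.

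The target genes were described with the sequence before their start sites, because HIF binds a short core motif there or at a distance. The motifs ACGTG and GCGTG were searched on both strands in the 250 bases before each RefSeq start (GRCm38.p6), where their complements read CACGT and CACGC, and a palindromic CACGTG counts as 2 matches. Of the 10 genes, all but Epas1 matched a promoter entry, with 10 windows in all since Egln2 has 2, and 9 of these 10 windows held at least 1 match, where 38.6% of all 32851 promoter windows of this length do. A match is a description of the letters and not a binding site. The windows printed here, 5′ to 3′ with the matches in capitals, were chosen for the genes' roles as HIF targets and not for their number of matches, and are those of the 3 target genes and of Egln3, at chr7:138909507-138909756 (Bnip3, minus strand), chr8:45999851-46000100 (Ankrd37, minus strand), chr7:110627407-110627656 (Adm, plus strand) and chr12:54203875-54204124 (Egln3, minus strand).
Bnip3: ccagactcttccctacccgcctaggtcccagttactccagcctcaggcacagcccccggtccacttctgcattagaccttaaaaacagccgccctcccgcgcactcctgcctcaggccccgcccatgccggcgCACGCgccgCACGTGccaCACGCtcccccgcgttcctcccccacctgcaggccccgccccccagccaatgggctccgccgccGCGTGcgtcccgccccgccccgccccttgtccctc
Ankrd37: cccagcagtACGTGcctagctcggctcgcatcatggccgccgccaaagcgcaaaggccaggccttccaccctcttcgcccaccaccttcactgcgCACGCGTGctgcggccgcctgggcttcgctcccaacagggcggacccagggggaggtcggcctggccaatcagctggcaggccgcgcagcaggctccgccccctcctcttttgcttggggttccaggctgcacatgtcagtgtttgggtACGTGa
Adm: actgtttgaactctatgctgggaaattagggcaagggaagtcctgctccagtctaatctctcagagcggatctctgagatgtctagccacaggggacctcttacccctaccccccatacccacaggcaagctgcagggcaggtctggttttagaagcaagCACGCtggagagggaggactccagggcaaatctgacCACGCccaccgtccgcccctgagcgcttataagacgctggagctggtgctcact
Egln3: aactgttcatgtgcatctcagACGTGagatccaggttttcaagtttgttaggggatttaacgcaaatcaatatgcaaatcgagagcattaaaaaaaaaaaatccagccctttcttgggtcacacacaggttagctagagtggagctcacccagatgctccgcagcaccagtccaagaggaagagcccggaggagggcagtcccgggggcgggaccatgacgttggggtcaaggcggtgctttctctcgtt
Bnip3 held 5 matches, a number that 1.01% of all windows reach or pass, and the outermost lay 117 and 35 bases before the start. Ankrd37 held 4, a number that 2.58% reach or pass, the nearest of them 6 bases before the start. Adm held 2 and Egln3 held 1, 229 bases before the start. Among the subunits and regulators, Egln2 held 4 in one window, as many as Ankrd37, and 1 in another, Hif1a held 3, Egln1 held 2, Arnt held 1 and Vhl held none.

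None of the 3 target genes passed the test, and all 3 had a positive log2 fold change with an interval that included 0. Bnip3 (ENSMUSG00000078566, chr7:138490690-138511253 of GRCm39, minus strand), which encodes a mitochondrial receptor for mitophagy, had 17.5, 22.5 and 22.0 CPM in female replicates 1, 2 and 3 and 20.9, 24.0 and 27.6 CPM in male replicates 1, 2 and 3. The sexes overlapped, female replicate 1 being lowest and male replicate 3 highest. Males over females gave a log2 of 0.23 (standard error 0.156, 95% interval -0.12 to 0.57, adjusted p = 0.684 from edgeR), and it was 0.13 without female replicate 1 and 0.12 without male replicate 3. Of its exon bases, 11.7% are shared with Gm45507 on the opposite strand.

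Adm (ENSMUSG00000030790, chr7:110226858-110229027, plus strand), which encodes the vasodilator peptide adrenomedullin, was the least abundant, with 40 to 98 counts per library. It had 1.56, 0.795 and 0.852 CPM in females and 1.65, 1.85 and 1.39 in males. Female replicate 1 lay among the males and the other females below them all. On the log2 scale males differed by 0.60 (SE 0.369, 95% interval -0.22 to 1.42, adjusted p = 0.632 from edgeR), so a difference of up to 2.68 times in favour of males stayed within the interval. Without female replicate 1 the value was 0.99. In the annotation 31.9% of the exon bases of Adm are shared with Gm72687 on the opposite strand.

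Ankrd37 (ENSMUSG00000050914, chr8:46449939-46458744, minus strand), an ankyrin repeat gene known as a HIF target, had 4.39, 4.92 and 2.51 CPM in females and 4.65, 4.97 and 6.58 in males. The sexes overlapped, and female replicate 3 was the low library. Males over females gave a log2 of 0.45 (SE 0.290, 95% interval -0.19 to 1.10, edgeR adjusted p = 0.653), and this was 0.21 without female replicate 3 and 0.28 without male replicate 3. In the annotation 81.4% of its exon bases are shared with Ufsp2 and Lrp2bp on the opposite strand, so its counts depend on whether strand was used. Ufsp2 had between 18.2 and 20.9 CPM with overlapping sexes, and Lrp2bp at most 0.170 CPM.

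The other genes of the pathway were taken from 5 lists, 77 genes in all, of which 71 were tested. In edgeR none of them passed after adjustment, in either direction, while 13 (18.3%) had an unadjusted p under 0.05, 6 of them higher and 7 lower in males, against 9.79% of all genes tested. In DESeq2's Wald test, 3 genes of the glycolytic targets and 3 of the other targets passed, and none of the remaining lists, where 1.99% of all genes did.

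Of the 13 other HIF subunits and regulators, all tested, 8 had higher and 5 lower means in males, with a median log2 fold change of 0.04. The smallest p belonged to Cul2, the scaffold of the VHL ubiquitin ligase, at 22.7 ± 1.32 CPM in the female and 19.2 ± 1.23 CPM in the male libraries (mean ± SD, n = 3 each). Hif3a, the third alpha subunit, had 0.188 ± 0.0704 CPM in females and 0.361 ± 0.192 in males (mean ± SD, n = 3 each), resting on at most 30 counts in a library. Usp20, a deubiquitinase that binds VHL, had 8.72 ± 0.400 CPM (SD, n = 3) and 7.85 ± 1.63 (SD, n = 3).

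Of the 19 glycolytic HIF targets, all tested, 12 had higher and 7 lower means in males, with a median log2 fold change of 0.08. The 3 with the smallest p were all higher in every male than in every female library. In the whole list, libraries were apart for 4 genes higher in males and for 1 lower, Pfkl, a phosphofructokinase subunit at -0.25 on the log2 scale. Together they were 26.3% of the list, where 7.25% of all genes tested were apart and higher and 7.29% apart and lower. Slc2a3, the glucose transporter GLUT3, had 123, 125 and 122 CPM in female replicates 1, 2 and 3 and 181, 210 and 168 in male replicates 1, 2 and 3. Males over females stood at 0.60 on the log2 scale (SE 0.120, adjusted p = 0.110 in edgeR and 0.00195 in DESeq2). Slc16a3, the lactate exporter MCT4, stood at 0.67 (SE 0.138, adjusted p = 0.115 from edgeR and 0.00479 from DESeq2). Pfkfb4, which makes an activator of phosphofructokinase, had 0.55 (standard error 0.142, adjusted p = 0.231 from edgeR and 0.0440 from DESeq2). The enzymes Gapdh and Ldha had values of 0.08 and 0.04 on that scale, and the transporter Slc2a1 had -0.0016, all with overlapping sexes. The neutrophil sum and the erythroid sum, the latter mostly globins, were higher in the same libraries, and their part in these levels was not tested.

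Of the 25 other HIF targets, 21 were tested, 13 with higher and 8 with lower means in males and a median log2 fold change of 0.09. Libraries were apart for 4 genes higher in males, Mxi1, Ero1a, Cxcr4 and Vegfa, and for 4 lower in males, Lox, Plod2, P4ha1 and Hmox1. Together they were 38.1% of the genes tested in this list, where 7.25% of all genes tested were apart and higher and 7.29% apart and lower. Mxi1, a MYC antagonist, stood at 0.35 on the log2 scale, Ero1a, an oxidase of the endoplasmic reticulum, at 0.32 and Cxcr4, a chemokine receptor, at 0.26, each with an unadjusted p under 0.05 in edgeR. The 3 with the smallest p, Lox, Plod2 and P4ha1, were lower in every male than in every female library. Lox, which encodes lysyl oxidase, had 40.9, 20.8 and 33.4 CPM in female replicates 1, 2 and 3 and 12.4, 7.86 and 13.9 in male replicates 1, 2 and 3. Males over females stood at -1.48 on the log2 scale (SE 0.268, adjusted p = 0.0854 in edgeR and 7.55e-06 in DESeq2). Plod2, a lysyl hydroxylase, had -1.04 (standard error 0.290, adjusted p = 0.262 from edgeR and 0.0324 from DESeq2). P4ha1, a subunit of collagen prolyl hydroxylase, had -0.48 (standard error 0.137, adjusted p = 0.273 from edgeR and 0.123 from DESeq2). With the replicate block in edgeR the adjusted p was 0.0460 for P4ha1 and 0.0667 for Plod2. P4ha2, the other such subunit on the list, had 6.48 ± 0.664 CPM in females and 7.74 ± 2.62 CPM in males (mean ± SD, n = 3 each), a log2 of 0.26 with overlapping libraries. The stromal and osteoblast sum had 3024, 1540 and 3163 CPM in female replicates 1, 2 and 3 and 1871, 1290 and 2449 CPM in male replicates 1, 2 and 3. For Lox, as for the stromal and the endothelial sums, replicate 2 was the lowest library of each sex. Plod2 was lowest in replicate 2 among the females and highest in replicate 2 among the males. The part of stromal or endothelial cells in these levels was not tested. The other gene of this list that passed in DESeq2 was Hmox1, the heme oxygenase abundant in macrophages, at 1540 ± 335 CPM in the female and 881 ± 253 CPM in the male libraries (mean ± SD, n = 3 each). Males over females stood at -0.81 on the log2 scale (SE 0.233, adjusted p = 0.284 in edgeR and 0.0184 in DESeq2), and the macrophage sum was lower in the same libraries. Epo, the hormone erythropoietin, had no count in any library, and Vegfa, the vascular growth factor, stood at 0.38 on the log2 scale (adjusted p = 0.597 from edgeR) with its male libraries above the female ones.

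Of the 12 BNIP3 relatives and mitophagy genes, all tested, 6 had higher and 6 lower means in males, with a median log2 fold change of 0.05. Those with the smallest p were Gabarapl1, at -0.52 (standard error 0.164, adjusted p = 0.336 from edgeR), Map1lc3b, at 0.23, and Bcl2l1, at 0.24. The closest relative, Bnip3l, which removes mitochondria from maturing red cells, had 152 ± 17.6 CPM in females and 169 ± 3.56 in males (mean ± SD, n = 3 each). Of the 8 adrenomedullin relatives and receptors, 6 were tested, 2 with higher and 4 with lower means in males. Ramp2, the receptor partner that vessels need for adrenomedullin, had 4.17, 2.35 and 4.60 CPM in females and 1.21, 1.01 and 2.87 in males, or -1.13 on the log2 scale (SE 0.429, edgeR adjusted p = 0.418). Ramp3 had -0.84 (adjusted p = 0.443 from edgeR) and Ramp1 0.21 (adjusted p = 0.712 from edgeR). The shared receptor Calcrl had 31.5 ± 3.85 CPM in females and 31.3 ± 2.12 in males (mean ± SD, n = 3 each), with overlapping libraries. Ramp3 lay lower in every male than in every female library, Ramp2 overlapped, and the endothelial sum was lower in all males. The part of endothelial cells in these levels was not tested.

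**Figure D5:**
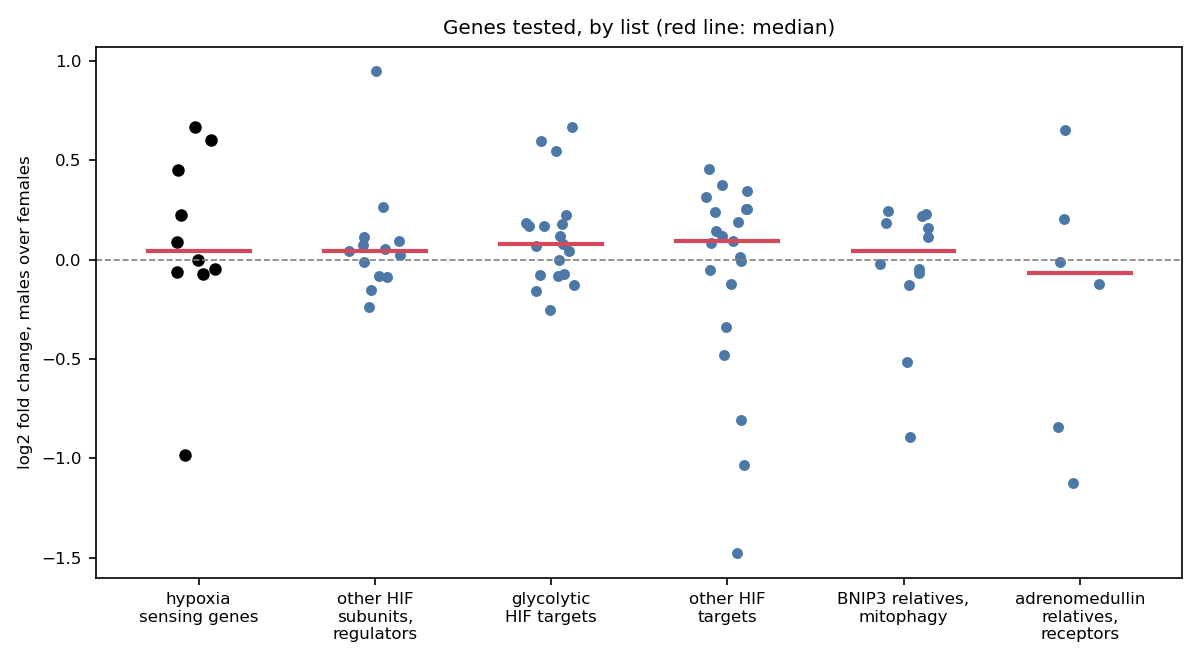
Log2 fold change of males over females for every tested gene, by list, with the hypoxia sensing genes in black and the list median as a red line. The medians lie between -0.07 and 0.09, and the lowest points are Lox at -1.48, Ramp2 at -1.13, Plod2 at -1.04 and, among the hypoxia sensing genes, Epas1 at -0.98.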

How the data were processed

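The authors deposited whole-number counts per gene for 6 libraries, with a column for each library and without normalization. The paper's methods name STAR, GRCm39 and featureCounts, while the submitters' processing notes name TopHat2 2.0.11, featureCounts and the older builds mm9 and NCBIM37. These sources also name different library kits, and the labels a sort where the methods name beads. The annotation release and the use of strand are not given in the sources used here, and overlapping genes could share reads. Symbols, GRCm39 positions and exon lengths came from GENCODE M39, which matched 31073 of 37991 identifiers. Promoter sequences and their GRCm38.p6 positions came from RefSeq.

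Males were compared with females in edgeR 4.0.16 (R 4.3.3) by the quasi-likelihood test, fitted robustly after TMM and the default low-count filter, with p adjusted by Benjamini-Hochberg over every gene tested. Each standard error (SE) is the absolute log2 fold change over √F. Ratios were tested by exact permutation over the 20 splits of 6 libraries. For males against females, the tests were checked on simulated data of 19138 genes for edgeR and 19478 for DESeq2. With 200 genes changed, edgeR made 11 false calls, the replicate block 25 and DESeq2 43, and they recovered 87%, 89% and 91% of genes changed by a log2 of 1. With no gene changed, false calls numbered 0 in edgeR on 19137 genes, 0 with the block and 14 in DESeq2. DESeq2 1.42.0, other scalings and filters, a replicate block and each library left out were alternatives. The members, gene lists, markers and tests were chosen with earlier results of these data known. Named were all members, the genes of each pathway list that passed or else the 3 with the smallest p, the 3 most abundant genes of each marker list, and the 5 genes nearest in pattern to Hif1a and to Epas1. Emcn, Cdh5, Mxi1, Ero1a, Cxcr4, P4ha2, Hmox1, Epo, Vegfa, Bnip3l, Calcrl, Gapdh, Ldha, Pfkl and Slc2a1 were named after their values were seen. The B cell markers (9 genes) summed to between 3098 and 3564 CPM in females and 3125 and 3614 in males, led by Cd79b, Cd79a and Ms4a1. The erythroid markers (11 genes) summed to between 12311 and 17701 and between 18631 and 27393 CPM, led by Hbb-bs, Hba-a1 and Hba-a2, globins whose near-identical copies can share reads. No label says that replicates are separate animals, so p-values measure only the spread between these samples. CPM floors cover counting error only.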

Additional observations from a re-analysis of the deposited data

How the results depend on the processing

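The number of genes called over all genes was 8, and became 14 with total counts alone, 98 with no filter on low counts, 354 with DESeq2's Wald test and 428 with the replicate number as a block. With each library left out in turn it lay between 5 (without female replicate 2) and 96 (without male replicate 3). Of the hypoxia sensing genes 0 were called, and 1, Epas1, with no filter (log2 fold change -0.99, adjusted p = 0.0207 from edgeR), with DESeq2 (-0.98) and with the replicate block (-0.98, adjusted p = 0.00123 from edgeR). Left-out libraries gave between 0 and 1 call, and Epas1 between -1.15 and -0.88. Of the glycolytic targets 1 was called with no filter, 3 with DESeq2, 3 with the block and between 0 and 1 with a library left out. Of the other HIF targets 3 were called with DESeq2, Lox, Plod2 and Hmox1, and 2 with the block, Lox and P4ha1. Of the 10 hypoxia sensing genes, those not overlapping and higher in males numbered 1 in the main comparison (7.25% of all genes), 3 with total counts alone and between 1 and 3 with a library left out, and those lower 1 (7.29% of all genes) and between 1 and 2. The shares of all genes are for the main comparison only. Fewer libraries separate more readily, so the counts with a library left out cannot be set against these shares. The sign near 0 turned for Vhl with DESeq2's size factors (0.0014) and with at least 10 counts in every library (0.0020). With a library left out, the log2 fold change lay between -0.057 and 0.036 for Vhl, -0.11 and 0.021 for Hif1a and -0.15 and 0.075 for Arnt. Egln3 stayed between 0.55 and 0.90 and was called in none of the alternatives run. The replicate numbers pair no animals in the labels: deviations of same-numbered libraries from the means of their sex correlated at 0.194, 0.0402 and 0.298 across genes for replicates 1, 2 and 3, and male replicate 2 correlated best with female replicate 1 (0.131), so the block may not mark a shared origin. With a library left out, the log2 fold change lay between 0.12 and 0.32 for Bnip3, 0.43 and 0.99 for Adm and 0.21 and 0.64 for Ankrd37, and Epas1 over the endothelial sum between -0.32 and -0.16. Adm had the fewest counts, 40 to 98 per library.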
